A study of Mus musculus with 14 samples.

Results

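The vascular endothelial growth factor (VEGF) and angiopoietin ligands and their receptors were followed in lungs of mice carrying a mammary tumour and of mice without one. The set held 10 genes, and every probe set whose platform gene symbol was one of them was used, which gave 19 of the 34945 probe sets that carry a single symbol (10 of 18193 genes). Where a gene had several, the one with the highest mean over the arrays is called its brightest. Arrays came from 4 lungs of BALB/c mice whose mammary fat pad had received cells of the metastatic mouse breast carcinoma line 4T1. Another 5 lungs came from mice given the non-metastatic line 67NR in the same way, and 5 normal lungs from control mice given PBS alone. Tumour-bearing mice were sampled 6 days after inoculation or at a tumour volume of about 50 mm3, and all lungs were perfused with PBS before RNA was taken. Each tumour class is 1 cell line, so the ability to metastasise and whatever else separates 4T1 from 67NR cannot be told apart, no batches are labelled, and the labels do not say that each sample is a separate mouse.

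VEGF ligands are secreted and bind receptor tyrosine kinases on endothelial cells. VEGFA, made in the lung largely by alveolar epithelium, acts through VEGFR1 (gene Flt1) and VEGFR2 (gene Kdr), VEGFB through VEGFR1, and VEGFC mainly through VEGFR3 (gene Flt4), the receptor known for lymphatic vessels. Angiopoietins bind Tie2 (gene Tek): ANGPT1 from perivascular cells activates it and stabilises vessels, ANGPT2 from endothelium acts mostly against it, and Tie1 is a related receptor that modulates Tie2. Both systems are known for their part in tumour angiogenesis and in the leakiness of lung vessels near growing tumours.

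No probe set of these 10 genes passed the test in any of the 3 comparisons. A change was called at an adjusted p under 0.05 by limma, with Benjamini-Hochberg adjustment over all 34945 probe sets. In 4T1 against normal lungs 0 of 19 were called, beside 0.186% of all probe sets, and the lowest adjusted p of the 19 was 0.793. In 67NR against normal lungs 0 of 19 were called, beside 0.00286% of all, with a lowest adjusted p of 0.714. In 4T1 against 67NR lungs 0 of 19 were called, beside 0.217% of all, with a lowest adjusted p of 0.489. At these backgrounds a count of 0 among 19 is near what the whole table gave, so it says nothing particular about these genes. At an unadjusted p under 0.05 by limma, the counts in the same order were 2, 1 and 1 of 19, beside 5.72%, 6.78% and 8.77% of all probe sets.

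The differences were small as well, as they were over the whole table. Differences are given as log2 of the intensity plus 16, tumour-bearing minus normal or 4T1 minus 67NR. Over the 19 probe sets they ranged from -0.25 to 0.30 in 4T1 against normal lungs, with a median of 0.008 beside -0.006 over all probe sets. They ranged from -0.135 to 0.27 in 67NR against normal lungs (median 0.012, all probe sets 0.002) and from -0.26 to 0.11 in 4T1 against 67NR lungs (median 0.005, all probe sets -0.009). The median size without regard to sign was 0.084, 0.09 and 0.067 in that order, beside 0.073, 0.075 and 0.084 over all probe sets. The 95% interval of the difference, unadjusted for the number of probe sets, was compared with 1.5-fold in both directions. It lay within this for 27754, 28382 and 27322 of all 34945 probe sets, and for 17, 17 and 18 of these 19 in that order. The probe sets whose intervals reached further were 2 of Vegfc in 4T1 against normal lungs, 1 of Vegfc and 1 of Angpt2 in 67NR against normal lungs, and that same Angpt2 probe set in 4T1 against 67NR lungs. In 0 of the 19 probe sets did groups lie apart without overlap in any comparison, beside 2.45%, 1.23% and 3.16% of all probe sets in the same order.

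**Figure D1:**
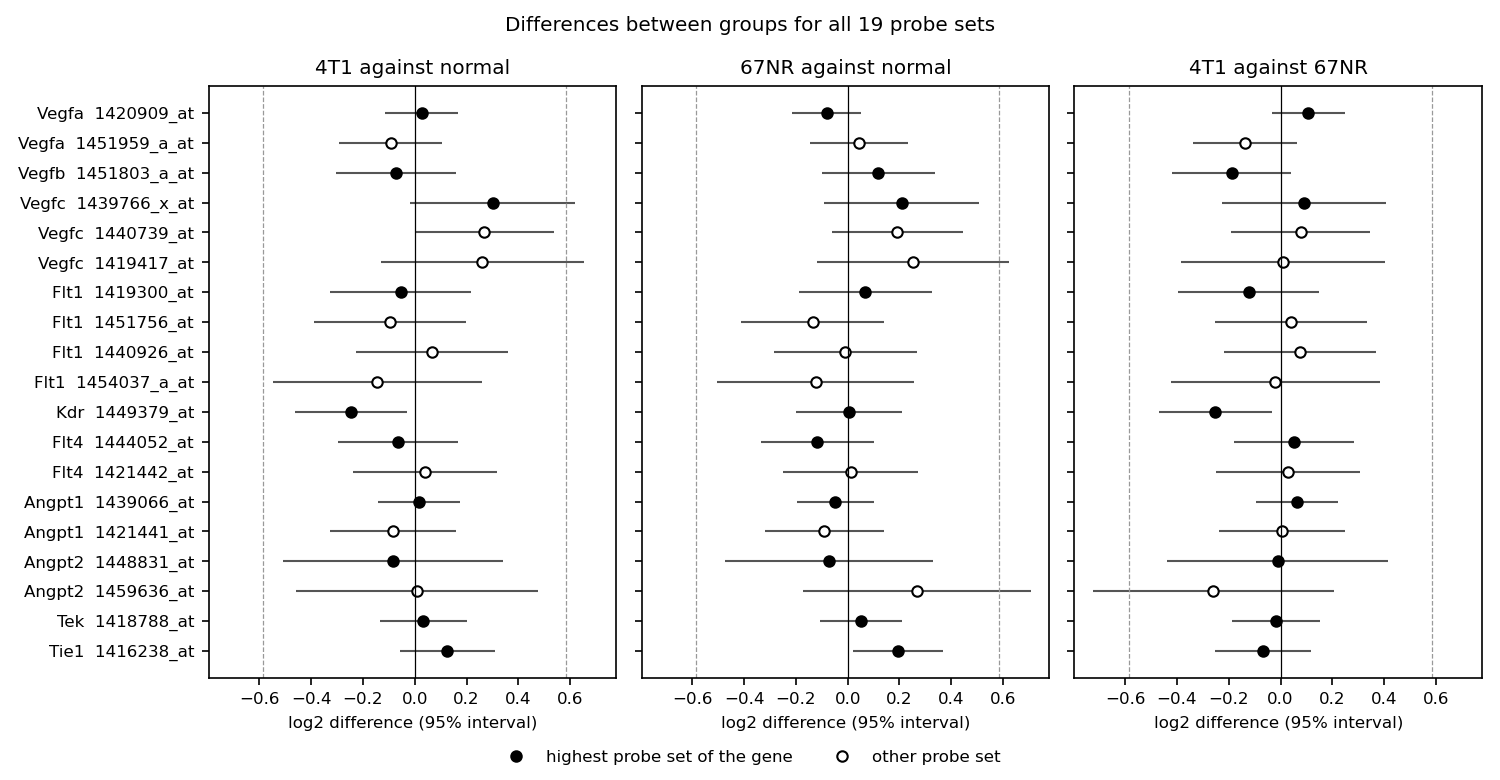
Differences on the log2(intensity + 16) scale for all 19 probe sets in 3 comparisons, with 95% intervals as lines; filled points are the probe set with the highest mean level of each gene and open points the others. Dashed lines mark 1.5-fold. The Kdr point lies left of 0 in both comparisons that involve 4T1 lungs, at -0.25 in each, and the 3 Vegfc points lie right of 0 in both tumour-bearing groups against normal lungs.

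The arrays shared a common scale, with median intensities from 113.2 to 116.1, and expressed lung genes in all groups, such as the surfactant gene Sftpc and the endothelial genes Pecam1 and Cdh5 (mean intensities of 4131 to 4560 and of 5246 to 5706 by group). The 12 cardiac muscle markers varied in every group, with summed intensities of 15406 to 18996 in 4T1, 11869 to 22026 in 67NR and 12906 to 18046 in normal lungs. In 4T1 lungs 11 of 15 measured neutrophil markers were higher than in normal lungs (median log2 change 1.74), with summed intensities of 26561 to 37395, against 6900 to 10974 in 67NR and 5357 to 9113 in normal lungs. Those with the lowest p were the lectin receptor Clec4d, the protease Mmp8, the calprotectin subunit S100a9 and the chemokine receptor Cxcr2 (log2 differences of 1.68, 1.36, 2.48 and 2.41). In 4T1 against 67NR lungs, where 11 of 15 were also higher, they were Clec4d, Mmp8, the stefin Stfa2l1 and S100a9 (1.34, 1.31, 3.71 and 2.22). Clock output genes stood apart in 67NR replicates 1 and 3, at a mean log2 level of -1.97 and -1.35 after centring each gene, beside -0.41 to 0.32 in the other 67NR lungs and -0.025 to 0.71 in normal lungs. Without those 2 arrays 0 of the 19 probe sets were called in either comparison with 67NR lungs. Fewer cells of a type and less RNA per cell cannot be told apart in whole lung.

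Among the ligands, Vegfa, the main angiogenic growth factor, was measured by 2 probe sets and did not differ beyond the spread of the arrays. Its brighter probe set read 4490, 4302, 4117 and 4192 in 4T1 lungs, against 3516, 4069, 3868, 4175 and 4255 in 67NR lungs and 4083, 4195, 3837, 4315 and 4595 in normal lungs. The 3 groups overlapped, and 67NR replicate 1 was the lowest array. The log2 difference was 0.026 in 4T1 against normal lungs (SE 0.065, 95% interval -0.12 to 0.17), a range of 0.923 to 1.12 times the normal level for this probe set. It was -0.08 (SE 0.061) in 67NR against normal and 0.11 (SE 0.065) in 4T1 against 67NR lungs. The other probe set had differences of the opposite sign in each comparison (-0.09, 0.044 and -0.14), with an interval of 0.817 to 1.08 times normal in 4T1 lungs, and within groups the 2 probe sets had a correlation of -0.20 over the 14 arrays.

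Vegfb, whose product binds VEGFR1 alone among the VEGF receptor kinases, read 644, 501, 589 and 572 in 4T1 lungs. It read 646, 580, 689, 786 and 603 in 67NR lungs and 556, 635, 734, 561 and 554 in normal lungs. The mean was highest in 67NR lungs, then normal, then 4T1 lungs, and neighbours in this order overlapped. The difference was -0.19 in 4T1 against 67NR lungs (SE 0.11, limma adjusted p = 0.656), with 0 of 4 4T1 arrays above the 67NR mean.

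Vegfc, the ligand of VEGFR3, leaned upward in both tumour-bearing groups on all 3 of its probe sets, and none was called. Its brightest probe set read 237, 285, 299 and 263 in 4T1 lungs and 260, 194, 332, 300 and 204 in 67NR lungs, against 187, 194, 256, 230 and 222 in normal lungs. In 4T1 lungs 3 of 4 arrays lay above the highest normal array, and in 67NR lungs 3 of 5 did, while 67NR replicates 2 and 5 lay among the normal arrays. In 4T1 against normal lungs the 3 probe sets had log2 differences of 0.30 (SE 0.15), 0.27 (SE 0.12) and 0.26 (SE 0.18), with adjusted p-values of 0.889, 0.868 and 0.944 by limma. In 67NR against normal lungs they were 0.21, 0.19 and 0.25 (adjusted p = 0.830, 0.804 and 0.835 by limma). Without 67NR replicates 1 and 3 the brightest probe set had a difference of 0.07 in that comparison. Between 4T1 and 67NR lungs the differences were 0.09, 0.08 and 0.009. The comparisons of 4T1 and of 67NR with normal lungs share the normal arrays, so their like direction is not independent. The 3 probe sets had correlations of 0.82 to 0.91 with each other within groups. Within groups the brightest had a correlation of 0.74 with the mean of the cardiac muscle markers, of 0.60 with that of the pericyte and smooth muscle markers and of -0.86 with that of the alveolar type 2 markers, over 14 arrays. These were picked from correlations with the means of all lists. It was -0.62 with the general capillary markers and 0.64 with clock positive limb genes such as Arntl. The mean centred log2 level of those clock genes was -0.04 in 4T1, 0.29 in 67NR and -0.26 in normal lungs. Of the cardiac markers 11 of 12 had positive differences in 4T1 and 10 of 12 in 67NR against normal lungs, and their mean centred log2 level was 0.11, 0.005 and -0.09 in 4T1, 67NR and normal lungs. Of the pericyte and smooth muscle markers 11 of 13 and 9 of 13 were positive, with summed intensities of 19218 to 20733 in 4T1, 18001 to 21304 in 67NR and 18761 to 20040 in normal lungs. Of the 10 measured alveolar type 2 markers 8 were negative and 2 positive in each tumour-bearing group against normal lungs, with medians of -0.066 in 4T1 and -0.036 in 67NR. The brightest probe set also had a correlation of -0.79 within groups with the mean of the venous and arterial endothelial markers. Of those 10 markers 5 were positive and 5 negative in each group against normal lungs. The part of these cells or of the clock genes in the Vegfc differences was not tested. The brightest is of the _x_at type, whose probes may also match other transcripts.

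Tie1 and Vegfc are the receptor and the ligand with the largest difference between 67NR and normal lungs among the brightest probe sets, so the 250 bases before their transcription starts are shown (RefSeq, GRCm38, 5′ to 3′). Windows were found for 8 of the 10 genes, all but Angpt1 and Angpt2. Capitals mark GGAA on either strand (TTCC on the other), the core of sites for ETS factors, which are known to drive endothelial genes. The Vegfc window is chr8:54077282-54077531 on the plus strand, and the Tie1 window is chr4:118489850-118490099 on the minus strand. Both lie just outside the annotated gene.
Vegfc: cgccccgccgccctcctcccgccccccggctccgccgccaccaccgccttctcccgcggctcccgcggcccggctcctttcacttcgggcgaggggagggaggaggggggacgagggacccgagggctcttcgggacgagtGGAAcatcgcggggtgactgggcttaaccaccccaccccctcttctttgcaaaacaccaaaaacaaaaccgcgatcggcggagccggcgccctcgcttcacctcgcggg
Tie1: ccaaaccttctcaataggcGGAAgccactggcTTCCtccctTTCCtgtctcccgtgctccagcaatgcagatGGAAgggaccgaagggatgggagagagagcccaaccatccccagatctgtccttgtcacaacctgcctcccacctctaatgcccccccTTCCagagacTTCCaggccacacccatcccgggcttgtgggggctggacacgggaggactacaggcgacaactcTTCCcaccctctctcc
The Vegfc window held GGAA 1 time and had a GC content of 71.6%, and the Tie1 window held it 7 times and had one of 60.4%. Over all 32851 mouse windows of this length the medians were 3 matches and 52.4%. GGAA was present in 9 of the 9 windows of the set (Vegfa has 2) and in 93.4% of all windows. ACGTG, a form of the core of hypoxia response elements, searched on both strands, was in 1 of 9, a Vegfa window, and in 16.6% of all. Other forms of that core were not searched. Neither motif contains the other. These are letter matches only.

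Among the receptors, Kdr, the main signalling receptor for VEGFA on endothelium, was lower in 4T1 lungs by the array values, but did not pass. It read 3732, 3254, 2966 and 3269 in 4T1 lungs. It read 3984, 4521, 3803, 3319 and 4090 in 67NR lungs and 4441, 4072, 3700, 4087 and 3345 in normal lungs. All 4 4T1 arrays lay below the mean of the other groups, yet 67NR replicate 4 and normal replicates 3 and 5 lay inside the 4T1 range. The log2 difference was -0.25 in 4T1 against normal lungs (SE 0.10, 95% interval -0.46 to -0.03, limma adjusted p = 0.793). It was also -0.25 in 4T1 against 67NR lungs (SE 0.10, limma adjusted p = 0.489). In 67NR against normal lungs it was 0.005 (SE 0.094, 95% interval -0.20 to 0.21). Kdr had the lowest unadjusted p of the 19 probe sets in both comparisons that involve 4T1 lungs, and no other probe set of Kdr was on the table to set beside it. The 26 measured pan-endothelial markers, which do not include these receptors, had a median of -0.011 in 4T1 against normal lungs, with 15 negative and 11 positive. In 4T1 against 67NR lungs their median was -0.074, with 18 negative and 8 positive. Their summed intensities were 86293 to 92740 in 4T1, 89611 to 100313 in 67NR and 85037 to 96254 in normal lungs. The 10 measured alveolar type 2 markers, with whose mean Kdr had a correlation of 0.91 within groups, had a median of -0.07 in 4T1 against normal lungs. In 4T1 against 67NR lungs their median was -0.036. The part of either cell type in the Kdr difference was not tested.

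Flt1, a receptor that binds VEGFA tightly and also occurs as a soluble trap, had 4 probe sets. The brightest read 1457, 1542, 1252 and 1636 in 4T1 lungs, against 1566, 1675, 1261, 1854 and 1692 in 67NR and 1544, 1791, 1659, 1461 and 1220 in normal lungs. All groups overlapped. The 4 probe sets had differences of -0.145 to 0.07 in 4T1 against normal lungs, of -0.135 to 0.07 in 67NR against normal lungs and of -0.12 to 0.08 in 4T1 against 67NR lungs. They followed each other unevenly, with correlations of 0.38 to 0.80 within groups. The brightest differed by -0.245 in 4T1 against 67NR lungs without 67NR replicates 1 and 3 (limma adjusted p = 0.648, from there to 0.991 over 26 alternatives), against -0.12 with them.

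Flt4, the VEGFC receptor, read 1112, 1381, 1213 and 1476 on its brighter probe set in 4T1 lungs. It read 1205, 1220, 1224, 1167 and 1403 in 67NR lungs and 1347, 1640, 1284, 1402 and 1115 in normal lungs. The groups overlapped, with differences of -0.06 (SE 0.11) in 4T1 and -0.12 (SE 0.10) in 67NR against normal lungs and 0.052 (SE 0.11) between 4T1 and 67NR. The dimmer probe set had differences of 0.04, 0.012 and 0.028 in the same order.

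Of the angiopoietins, Angpt1 varied little. Its brighter probe set read 1520, 1503, 1264 and 1453 in 4T1 lungs, against 1548, 1293, 1349, 1320 and 1343 in 67NR and 1415, 1430, 1573, 1356 and 1308 in normal lungs. All groups overlapped. The difference was 0.018 (SE 0.073) in 4T1 and -0.05 (SE 0.069) in 67NR against normal lungs, and the intervals of this probe set ran from 0.907 to 1.13 times and from 0.873 to 1.07 times the normal level. The dimmer probe set had differences of -0.085 (SE 0.11) and -0.09 (SE 0.11), the first of opposite sign, with wider intervals of 0.797 to 1.12 times and 0.802 to 1.10 times normal.

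Angpt2, the destabilising ligand, varied widely among the arrays and did not pass in any comparison. It read 407, 333, 404 and 375 in 4T1 lungs. It read 537, 299, 530, 292 and 324 in 67NR lungs and 455, 366, 299, 474 and 445 in normal lungs. In 67NR lungs replicates 1 and 3 stood above every other array of the study, and the other 3 read below 4 of the 5 normal arrays. The difference was -0.08 (SE 0.20) in 4T1 against normal, -0.07 (SE 0.19) in 67NR against normal and -0.011 (SE 0.20) in 4T1 against 67NR lungs. Without 67NR replicates 1 and 3, the arrays with low clock output genes, the difference was -0.38 in 67NR against normal (limma adjusted p = 0.508) and 0.30 in 4T1 against 67NR lungs (limma adjusted p = 0.610), and over 26 alternatives the adjusted p ran from 0.508 to 0.999 and from 0.610 to 1. Since 67NR replicates 1 and 3 held the highest values, leaving them out could only lower the 67NR mean. Within groups Angpt2 had a correlation of -0.84 with the mean of the clock output genes over 14 arrays. With the mean of the fibroblast markers it was 0.74. These were picked as the largest over all lists. It was 0.70 with genes known to be induced by VEGF, -0.65 with endothelial Notch and arterial genes and 0.62 with clock positive limb genes. With neutrophil markers it was 0.61 and with hypoxia and HIF genes -0.60. The part of any of these in the Angpt2 differences was not tested. The intervals for Angpt2 were the widest of the brightest probe sets, from 0.703 to 1.27 times the normal level in 4T1 lungs. The other Angpt2 probe set read between 3.8 and 5.0 on 13 arrays and 33.1 in 67NR replicate 3, so its values lie mostly under the added 16 and carry little information.

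Tek, the angiopoietin receptor Tie2, did not differ beyond the spread of the arrays. It read 5535, 4811, 5074 and 5181 in 4T1 lungs, against 5271, 5454, 4966, 4807 and 5588 in 67NR and 5411, 5235, 5058, 5360 and 4182 in normal lungs. The groups overlapped and normal replicate 5 was the lowest array. Differences were 0.033 (SE 0.078) in 4T1 and 0.051 (SE 0.074) in 67NR against normal lungs, and -0.018 (SE 0.078) between 4T1 and 67NR. The unadjusted 95% interval of this probe set in 4T1 lungs ran from 0.91 to 1.15 times normal, with normal replicate 5 included.

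Tie1, the partner of Tie2, read 1577, 1202, 1297 and 1283 in 4T1 lungs. It read 1407, 1352, 1401, 1305 and 1532 in 67NR lungs and 1228, 1383, 1250, 1182 and 1077 in normal lungs. All 5 67NR arrays lay above the normal mean and 3 above the highest normal array. The difference was 0.19 in 67NR against normal lungs (SE 0.08, 95% interval 0.02 to 0.37, limma adjusted p = 0.714). In 4T1 against normal lungs it was 0.13 (SE 0.085, adjusted p = 0.940) and in 4T1 against 67NR lungs -0.07 (SE 0.085, adjusted p = 0.880). The order of the means was 67NR, then 4T1, then normal lungs, and neighbours in it overlapped.

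**Figure D2:**
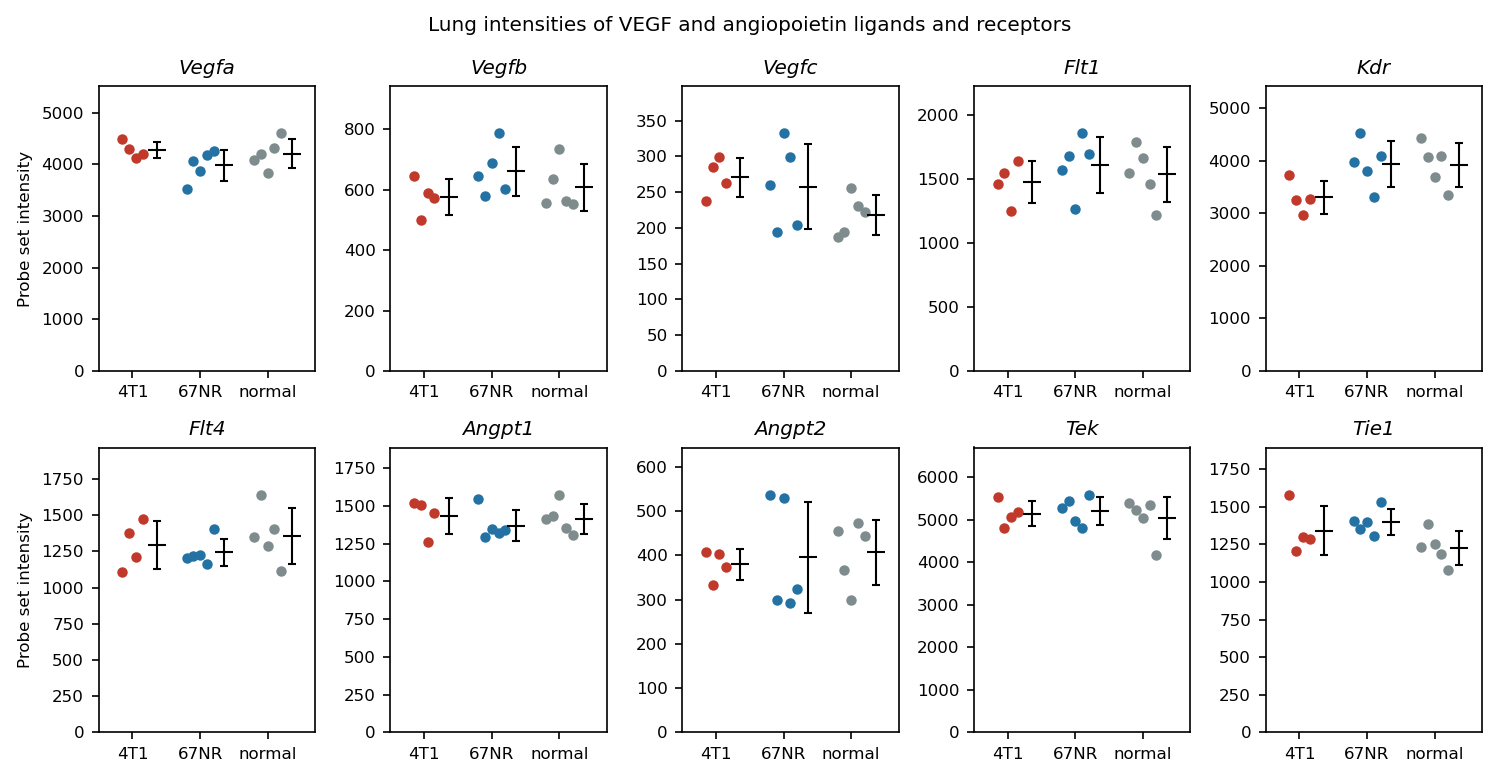
Intensity of the brightest probe set of each gene on every array, with 4T1, 67NR and normal lungs from left to right and axes that start at 0; black marks give the group mean and SD (n = 4, 5 and 5). All groups overlap in all 10 genes, and Angpt2 splits within 67NR lungs, with 2 arrays at 530 and 537 and 3 at 292 to 324.

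The other genes of these pathways were described from lists, using the brightest probe set of each gene. Of 21 measured co-receptors and partners 0 passed in each comparison by limma, and 2, 4 and 3 had an unadjusted p under 0.05 in 4T1 against normal, 67NR against normal and 4T1 against 67NR lungs. Their median differences were 0.008, -0.009 and 0.000, beside -0.002, -0.001 and -0.002 over all 18193 genes. Of all genes 5.63%, 6.92% and 9.07% had an unadjusted limma p under 0.05 in the same order, the background for each list that follows. Called by limma among all 18193 genes were 44 higher and 0 lower in 4T1 and 1 higher and 0 lower in 67NR against normal lungs. In 4T1 against 67NR lungs 42 were higher and 9 lower. At these backgrounds a count of 0 in this list or those that follow says nothing particular about its genes. Pgf, placental growth factor and a ligand of VEGFR1, had a mean and SD of 19.7 ± 7.0 over 4 4T1 lungs, of 44.4 ± 22.9 over 5 67NR lungs and of 13.8 ± 3.9 over 5 normal lungs. Its log2 difference was 0.93 in 67NR against normal lungs (SE 0.24, limma adjusted p = 0.558) and -0.68 in 4T1 against 67NR lungs (SE 0.25, adjusted p = 0.447), at levels close to the added 16. Vegfd, a further VEGFR3 ligand, had differences of 0.036, -0.16 and 0.20 in the 3 comparisons. Nrp1 and Nrp2, co-receptors for VEGF, had differences of 0.037, -0.03 and 0.067 and of -0.025, -0.025 and 0.000, and Ptprb, the phosphatase that restrains Tie2, of 0.007, -0.022 and 0.03. None of these 5 genes passed by limma in any comparison, and Pgf was the one with an unadjusted p under 0.05, in both comparisons that involve 67NR lungs.

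Foxo1, the transcription factor held out of the nucleus by Tie2 signalling, had a mean and SD of 1065 ± 74 over 4 4T1 lungs, of 956 ± 52 over 5 67NR lungs and of 1104 ± 34 over 5 normal lungs. Its difference was -0.21 in 67NR against normal lungs (SE 0.053, limma adjusted p = 0.558) and 0.15 in 4T1 against 67NR lungs (SE 0.056, adjusted p = 0.440). The 13 measured genes of the Tie2 and FOXO1 axis had 0 passing, 1, 3 and 1 at an unadjusted limma p under 0.05, and medians of 0.000, 0.043 and 0.03. The 15 measured genes of VEGF receptor signalling had 0 passing, 2, 0 and 2 at an unadjusted p under 0.05, and medians of 0.024, 0.051 and -0.012.

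Genes known to be induced by VEGF in endothelium leaned downward against normal lungs. Of 18 measured genes, other than the receptors and ligands above, 15 had negative differences in 4T1 lungs (median -0.22) and 16 in 67NR lungs (median -0.125), and 0 passed by limma. Over all 18193 genes 9312 and 9190 were negative, with medians of -0.002 and -0.001. At an unadjusted p under 0.05 there were 3, 4 and 3 of the 18 in the 3 comparisons, beside 5.63%, 6.92% and 9.07% of all genes. Both shifts share the normal arrays, and 4T1 lungs differed from 67NR lungs by a median of 0.006. The list's mean log2 level after centring each gene was -0.17 to 0.01 in 4T1 lungs, -0.15 to 0.11 in 67NR lungs, 0.29 and 0.25 in normal replicates 1 and 2 and 0.006 to 0.07 in normal replicates 3 to 5. Part of this list are immediate early genes that many stimuli induce. Of 20 measured hypoxia and HIF genes, which include inducers of Vegfa, 0 passed by limma, with 2, 2 and 4 at an unadjusted p under 0.05 and medians of 0.039, -0.025 and 0.059.

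Endothelial marker lists held no called genes, which is near what all genes gave and says nothing particular about them. None of the 26 pan-endothelial, 6 aerocyte, 9 general capillary, 10 venous and arterial and 9 lymphatic markers passed by limma in any comparison, a count of 0 in each. At an unadjusted p under 0.05 there were 1, 0 and 0 aerocyte, 1, 0 and 1 general capillary and 1, 0 and 2 venous and arterial markers in the 3 comparisons. The 26 pan-endothelial markers had medians of -0.011, 0.061 and -0.07. At an unadjusted limma p under 0.05 there were 3, 4 and 6 of them, beside 5.63%, 6.92% and 9.07% of all genes. Their differences were positive for 11, 19 and 8 and negative for 15, 7 and 18 in the same order. Over all 18193 genes 9312, 9190 and 9219 were negative. The lymphatic markers had medians of 0.011, 0.051 and -0.021, with 0, 0 and 0 at such a p. Pecam1 and Cdh5, junction proteins of endothelium, had differences of -0.03 and 0.008 in 4T1 against normal lungs and of 0.11 and 0.125 in 67NR against normal lungs.

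**Figure D3:**
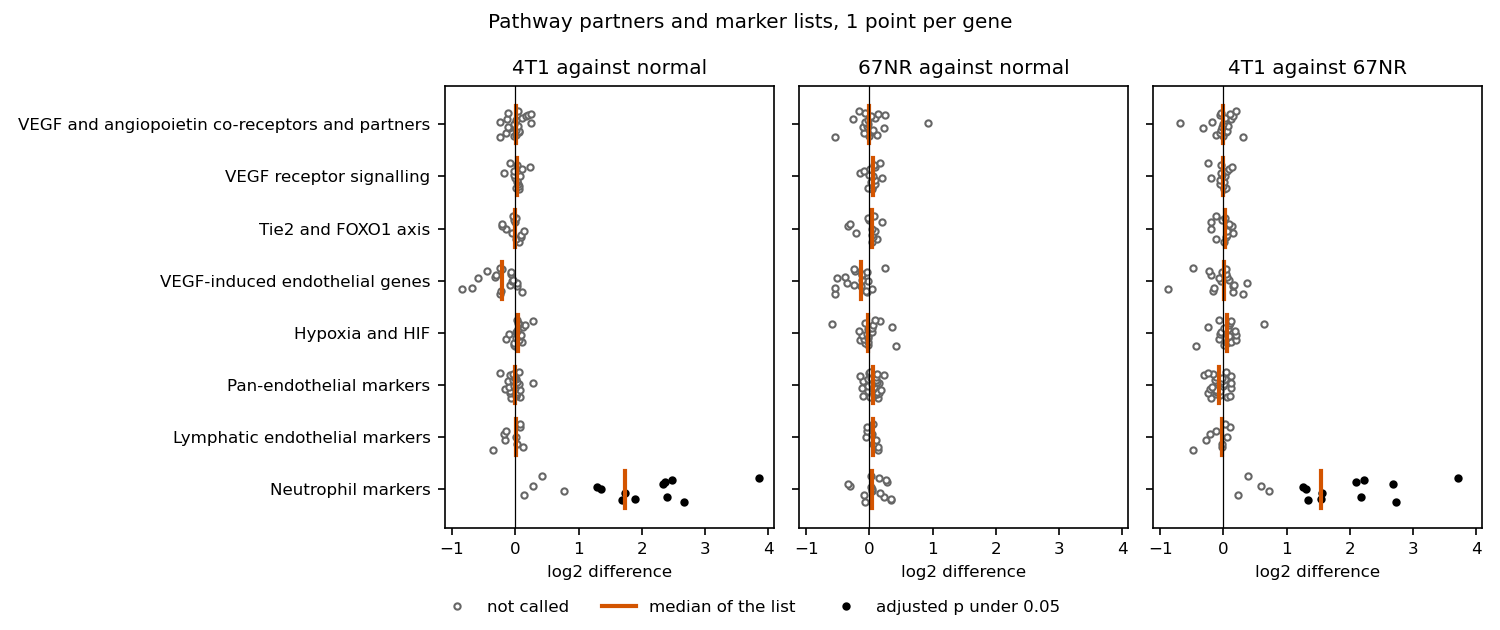
Log2 difference of each gene in 7 pathway and endothelial lists and in the neutrophil list, with 1 point per gene, the list median as a bar and called genes filled. Only neutrophil markers hold called genes, 11 of 15 in each of the comparisons that involve 4T1 lungs, while the list of genes induced by VEGF has medians of -0.22 and -0.125 against normal lungs.

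Variation from array to array within groups was also described, with each array given as its deviation from its group mean. Of the 45 pairs of the 10 genes, Kdr and Tek followed each other, with Pearson r = 0.83 and Spearman rho = 0.91 over 14 arrays (permutation within groups, two-sided, p = 0.00056 and 0.00014, Benjamini-Hochberg adjusted over the 45 pairs 0.0252 and 0.0063). Without the 2 arrays farthest from the median of Kdr, 67NR replicate 4 and normal replicate 5, r was 0.72. This was the only one of the 45 pairs with an adjusted p under 0.05. Tek and Tie1 had r = 0.71, Vegfc and Kdr r = -0.72 and Flt1 and Angpt2 r = -0.68, each with an adjusted permutation p = 0.109. Angpt1 and Angpt2, which share a receptor, had r = 0.04 (permutation adjusted p = 0.963).

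The mean of the pan-endothelial markers was set against each of the 10 genes in the same way. It followed Tek (r = 0.76, rho = 0.71, adjusted permutation p = 0.0195 and 0.0433), Kdr (r = 0.79, rho = 0.74, adjusted p = 0.0195 and 0.0433) and Flt4 (r = 0.70, rho = 0.79, adjusted p = 0.023 and 0.0258), in permutation tests adjusted over 10 relations. Vegfc ran opposite to it (r = -0.74, rho = -0.64), with adjusted permutation p = 0.023 for r and 0.0641 for rho. Without normal replicate 5 and 4T1 replicate 3, the arrays farthest from the median of the marker mean, r was 0.75 for Tek, 0.68 for Kdr, 0.60 for Flt4 and -0.83 for Vegfc. The other 6 genes had no adjusted permutation p under 0.129. All points share the arrays' overall scale and the makeup of each lung sample, so other cell markers move with them. Alveolar type 2 markers had r = 0.91 with Kdr, 0.82 with Tek, 0.41 with Flt4 and -0.86 with Vegfc. General capillary markers had r = 0.80 with Tek, beside 0.76 for the pan-endothelial markers. The part of these cells in these relations, and in that of Kdr with Tek, was not tested.

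**Figure D4:**
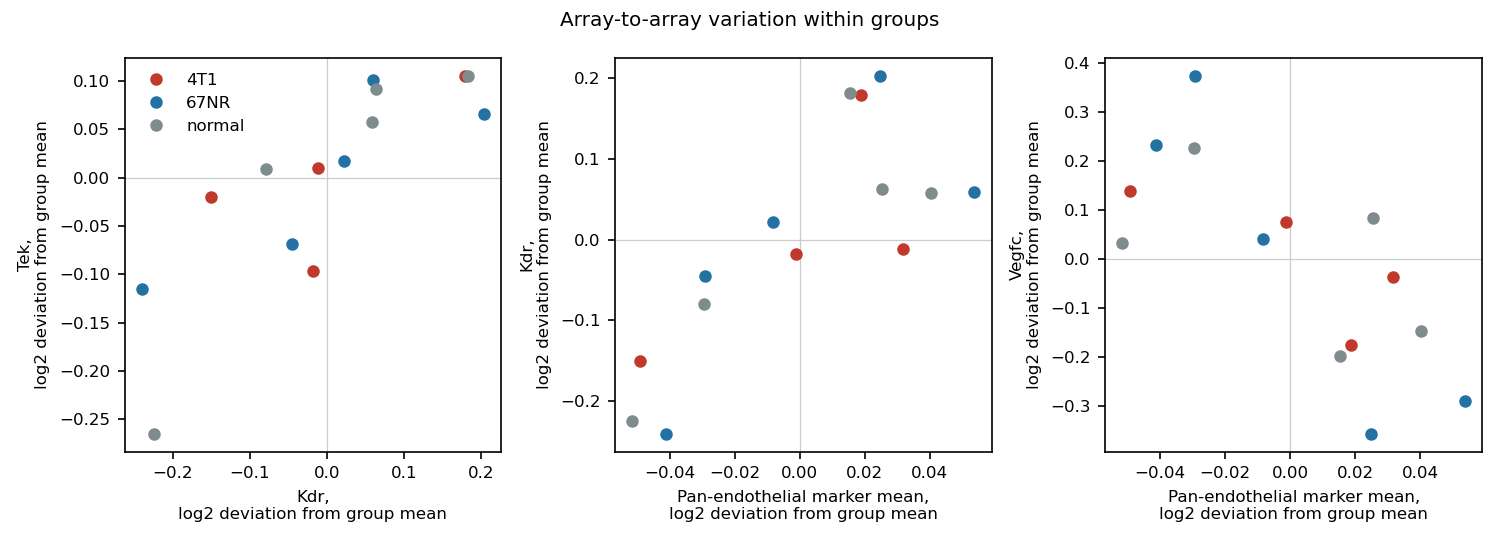
Deviations of each array from its group mean on the log2(intensity + 16) scale, with 1 point per array. Tek follows Kdr (r = 0.83), Kdr follows the mean of pan-endothelial markers (r = 0.79) and Vegfc runs opposite to that mean (r = -0.74).

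For each gene the 3 most alike genes were found among the other genes in the upper 60% of mean level, by the Pearson correlation of these deviations over 14 arrays. They are the highest of 10915 values each and are given as a description with no p. They were Ube2n, Enpp4 and Mtmr14 for Vegfa (0.88, 0.87 and 0.87), Slc25a23, Abhd14b and Itga5 for Vegfb (0.92, 0.90 and 0.90) and Slc45a3, Idh3a and Pdcd2 for Vegfc (0.93, 0.93 and 0.91). For the VEGF receptors they were Dusp3, Rabl6 and Tubb4a for Flt1 (0.96, 0.92 and 0.91), Tysnd1, Pmp22 and Anapc1 for Kdr (0.93, 0.92 and 0.90) and Atrn, Megf6 and Tgm2 for Flt4 (0.84, 0.82 and 0.80). For the angiopoietins and their receptors they were Ager, Slco2a1 and Egflam for Angpt1 (0.88, 0.86 and 0.84), Etfrf1, Maoa and Ptpn4 for Angpt2 (0.96, 0.94 and 0.93), Kcnh1, Osm and Zdhhc8 for Tek (0.91, 0.90 and 0.89) and Zc3h7b, Arhgef17 and Metrn for Tie1 (0.94, 0.88 and 0.88).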

How the data were processed

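Lung RNA of 14 samples was hybridised to Affymetrix mouse arrays, 1 array each. The deposited table holds linear intensities for 45101 probe sets, and the authors' steps of summarising and normalising are not given in the sources used here. Probe sets were named by the platform annotation of 2016, and 34945 with 1 symbol that are not controls were tested; 932 carried several symbols. Intensities became log2(intensity + 16) without a level filter, so differences of dim probe sets are understated. All 14 arrays entered 1 limma 3.58.1 model in R 4.3.3 (lmFit, eBayes, 11 residual degrees of freedom), two-sided. Correlations with a p used 100000 permutations within groups (Python 3.11.15, NumPy 2.4.6). Correlations with the means of the other lists were computed for every list and gene, and only some, mostly large ones, are given. The number of arrays limits precision, and p-values reflect only how these arrays spread, which may be technical. All 10 genes are named whatever their result, with 8 further pathway and endothelial genes, at most 4 called genes per list and comparison by lowest p (none outside the neutrophil list) and the 3 most alike genes each. The genes, lists and tests were chosen with earlier results of these data known. Scripts were tested on simulated data. No detection calls were used.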

Additional observations from a re-analysis of the deposited data

Results flagged for a closer look

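Of 57 groups of arrays (19 probe sets in 3 groups), 4 held an array far from the others by Dixon's criterion, where chance gives about 1 in 20. Tek read 4182 in normal replicate 5, against 5058 to 5411 in the other normal lungs. Angpt1 read 1548 on its brighter probe set in 67NR replicate 1, against 1293 to 1349 in the other 67NR lungs. Flt4 read 1403 on its brighter probe set in 67NR replicate 5, against 1167 to 1224 in the others. The dim Angpt2 probe set read 33.1 in 67NR replicate 3, against 4.1 to 5.0 in the others.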

How the results depend on the processing

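The count of 0 called probe sets or genes of the set held in each of the 3 comparisons under all 26 alternatives, namely 12 other settings and 14 fits that each left out 1 array. Of 780 values of the brightest probe sets under these alternatives 0 were called, and 33 changed sign, in 13 of 30 differences, none of them called in any fit. The lowest adjusted p over the alternatives was 0.294, for Kdr in 4T1 against 67NR lungs. Counts over the whole table moved more, and the cause was not tested. In 67NR against normal lungs the count was 1, and became 0 with a pseudocount of 64, in the upper 60% of probe sets, with the brightest probe set per gene in the upper 60% of genes, with the 2 compared groups alone and with the replicate block, and 5 without 67NR replicates 1 and 3. In 4T1 against normal lungs it was 65, and 37 with the compared groups alone. In 4T1 against 67NR lungs it was 76, and 33 with the compared groups alone and 34 with the replicate block. Leaving out single arrays gave 42 to 84 in 4T1 against normal, 0 to 3 in 67NR against normal and 37 to 76 in 4T1 against 67NR lungs. Single arrays that moved a count by over 1.5 times were 4T1 replicate 1 and normal replicate 2 (42 without either) in 4T1 against normal, 4T1 replicates 1 and 4 and 67NR replicates 2 and 3 (37, 44, 46 and 47) in 4T1 against 67NR, and, in 67NR against normal, 67NR replicate 1 (3) and 67NR replicate 2 or any normal replicate (0). The replicate numbers showed no pairing of the samples by the arrays' deviations: same-numbered arrays had correlations of -0.143 to 0.10, 0 of 13 pairs exceeded 0.1, and 2 of 14 arrays were closest to their own number. Low correlations cannot exclude that same-numbered samples were collected or processed together. Signal near the added 16 limits Pgf and the dim Angpt2 probe set.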
